A study of Mus musculus with 2 samples.

Results

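The antigen presentation genes described here are 10 of the 32285 genes counted, and they were taken by symbol from a list. Of these, 5 belong to the MHC class I route (*H2-D1*, *H2-K1*, *B2m*, *Tap1* and *Nlrc5*) and the other 5 to the class II route (*Cd74*, *H2-Aa*, *H2-Ab1*, *H2-Eb1* and *Ciita*). Single-nucleus libraries of the hippocampus, 1 from PS19 mice and 1 from PZKO mice, were made with a 10x Genomics 3′ kit to ask what the loss of ZBP1, a sensor of Z-form nucleic acids, does in tauopathy. PS19 mice carry a transgene for human tau with the P301S mutation, driven by the mouse prion protein promoter, and have intact *Zbp1*. PZKO mice carry the same transgene and lack *Zbp1*. Each library pooled males aged 9 months. Both groups carried the tau transgene, so no mice free of tauopathy were compared. With 1 library per genotype there was no replicate check, and genotype, animals and library preparation cannot be told apart. Levels are given as CPM, the UMIs (unique molecular identifiers) of a gene per 1000000 UMIs of the class. Intervals are at 95% and hold for counting error alone, and the genotypes were not tested against each other.

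MHC class I molecules display peptides from inside the cell to CD8 T cells. A heavy chain (*H2-D1*, *H2-K1*) pairs with β2-microglobulin (*B2m*), peptides reach it through the TAP transporter (*Tap1*), and the transactivator NLRC5 drives the genes. MHC class II molecules display peptides from endosomes to CD4 T cells, with the α and β chains encoded by *H2-Aa*, *H2-Ab1* and *H2-Eb1*, the invariant chain by *Cd74* and the transactivator by *Ciita*. In the brain, class I genes are known from endothelium and activated microglia, and class II genes from border macrophages, dendritic cells and a share of activated microglia.

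NLRC5 and CIITA act through a shared promoter module that includes the Y box, an inverted CCAAT motif bound by NF-Y. The bases before the start site (in *H2-K1* also the first 2 after it, where the motif ends) are shown for the members with a RefSeq promoter window. Of the Y box only exact copies of the letters CTGATTGG were searched, on both strands. They lay in members of both routes, though not in *B2m*. Coordinates are GRCm38.p6, and sequences read in the direction of the gene. Capitals mark CTGATTGG (CCAATCAG where it lies on the other strand) or, in *B2m*, the IRF motif. In *H2-D1*, *H2-K1* and *Tap1* the capitals read CCAATCAG, so the CCAAT is not inverted relative to the gene. Whether these copies serve as the Y box was not tested, and other forms of an inverted CCAAT were not searched for. The stretches are *H2-D1* at chr17:35262844-35263093, plus strand, *H2-K1* at chr17:34000332-34000583, minus strand, *Tap1* at chr17:34187306-34187555, plus strand, *B2m* at chr2:122147437-122147686, plus strand, *H2-Aa* at chr17:34287824-34288073, minus strand, and *H2-Eb1* at chr17:34305617-34305866, plus strand.
H2-D1: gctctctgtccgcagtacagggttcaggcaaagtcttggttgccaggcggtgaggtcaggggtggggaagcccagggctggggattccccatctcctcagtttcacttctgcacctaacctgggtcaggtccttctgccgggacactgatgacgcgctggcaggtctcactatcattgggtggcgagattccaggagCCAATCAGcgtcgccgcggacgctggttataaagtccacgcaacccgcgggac
H2-K1: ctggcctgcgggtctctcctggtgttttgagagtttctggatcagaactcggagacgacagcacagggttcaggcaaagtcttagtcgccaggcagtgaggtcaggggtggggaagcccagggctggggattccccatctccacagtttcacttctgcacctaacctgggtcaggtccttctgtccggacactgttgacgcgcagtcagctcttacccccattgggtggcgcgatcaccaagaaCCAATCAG
Tap1: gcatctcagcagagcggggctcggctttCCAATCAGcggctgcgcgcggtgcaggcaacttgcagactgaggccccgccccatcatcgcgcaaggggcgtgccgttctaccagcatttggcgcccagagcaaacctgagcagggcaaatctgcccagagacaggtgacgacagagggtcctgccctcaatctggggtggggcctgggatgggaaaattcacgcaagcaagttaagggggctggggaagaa
B2m: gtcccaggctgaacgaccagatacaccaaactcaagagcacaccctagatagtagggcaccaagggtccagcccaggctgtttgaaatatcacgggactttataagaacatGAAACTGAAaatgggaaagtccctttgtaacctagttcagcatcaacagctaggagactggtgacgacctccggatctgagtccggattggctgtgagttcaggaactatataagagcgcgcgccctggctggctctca
H2-Aa: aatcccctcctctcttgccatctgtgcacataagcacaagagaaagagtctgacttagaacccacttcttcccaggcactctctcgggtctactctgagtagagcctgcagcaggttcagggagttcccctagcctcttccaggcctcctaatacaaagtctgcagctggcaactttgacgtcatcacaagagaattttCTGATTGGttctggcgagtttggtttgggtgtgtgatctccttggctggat
H2-Eb1: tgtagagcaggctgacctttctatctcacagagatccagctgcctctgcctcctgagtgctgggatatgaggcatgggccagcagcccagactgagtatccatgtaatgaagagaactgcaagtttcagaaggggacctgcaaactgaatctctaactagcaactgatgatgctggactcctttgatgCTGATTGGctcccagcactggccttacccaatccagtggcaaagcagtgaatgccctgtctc

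RefSeq windows of 300 bases, from 250 before to 50 after the start, matched 6 of the 10 members. The motif CTGATTGG, searched on both strands, lay in 5 of these 6 genes and in 4.07% of all such windows. Its first base lay 51 bases before the start site in *H2-Aa*, 53 in *H2-D1*, 62 in *H2-Eb1* and 6 in *H2-K1*, where RefSeq lists a pair of neighbouring start sites that share 1 copy. In *Tap1* it lay 222 bases before the start, within the 275 bases that this window shares with that of *Psmb9*, a gene of the immunoproteasome read from the other strand. *B2m* held no exact copy of CTGATTGG on either strand and 1 copy of the IRF motif GAAANNGAA, 139 bases before its start. That motif was found in 8.53% of all windows. None of these 6 genes held exact copies of both CTGATTGG and the IRF motif. Of IRF sites only exact copies of GAAANNGAA were searched for, so other forms may be present. *H2-Ab1*, *Nlrc5* and *Ciita* had no entry, and no sequence is printed for *Cd74*.

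After filters, 9590 PS19 nuclei with 100905972 UMIs and 9307 PZKO nuclei with 152852227 UMIs were kept, with medians of 5864 and 9066 UMIs. The 2 libraries had 47 cell barcodes in common. *Zbp1*, the targeted gene, had 94 UMIs in the PS19 library (0.932 CPM) and 39 in the PZKO library (0.255 CPM), and 48 and 20 UMIs in microglia. Transcript from the targeted locus was thus lower but present in PZKO, and which part of the gene the 3′ reads cover was not tested. Clusters were named from markers in 14 classes, and all markers of each class had UMIs in both libraries. The classes included 941 PS19 and 755 PZKO microglia, 339 and 334 endothelial cells, 19 and 12 macrophages, and 30 and 31 T cells. A cluster of 9 PS19 and 13 PZKO nuclei (medians of 2256 and 2407 UMIs) was led by *Cd74* and class II genes. It had markers of more than 1 immune class and was left unnamed as the mixed immune cluster. The members and their pathway genes were left out of the genes used for clustering.

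Class I members were present in every class, highest in T cells, endothelial cells, microglia and macrophages and lowest in neurons. The summed level of the 5 genes in PS19 was 2957 CPM in T cells (172 UMIs), 1543 CPM in endothelial cells (1757 UMIs), 1044 CPM in microglia (3401 UMIs) and 939 CPM in macrophages (51 UMIs). The intervals of microglia (1009 to 1079 CPM) and macrophages (699 to 1235 CPM) overlapped, while those of T cells, endothelial cells and microglia did not. The order of endothelial cells and microglia is still uncertain. In nuclei with at most 1% mitochondrial UMIs they stood at 924 and 917 CPM in PS19, and at 842 and 850 CPM in PZKO. An endothelial cluster of 62 PS19 nuclei led by *Ly6c1* held 1117 of the 1757 endothelial UMIs. Pericytes and mural cells (239 CPM), VLMC (vascular leptomeningeal cells, 218 CPM), astrocytes (213.5 CPM) and oligodendrocytes (213 CPM) formed a middle group with overlapping intervals. OPC (oligodendrocyte precursors, 185 CPM), ependymal cells (151 CPM), Cajal-Retzius cells (112 CPM) and the choroid plexus (72.2 CPM) came next. The interval of OPC (164 to 209 CPM) overlapped those of the middle group. Inhibitory neurons at 35.7 CPM and excitatory neurons at 31.9 CPM were lowest, with overlapping intervals too. In PZKO the same 4 classes led, at 2461 CPM in T cells, 1285 in endothelial cells, 835 in microglia and 674 in macrophages, and excitatory neurons were again lowest at 22.5 CPM.

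**Figure D1:**
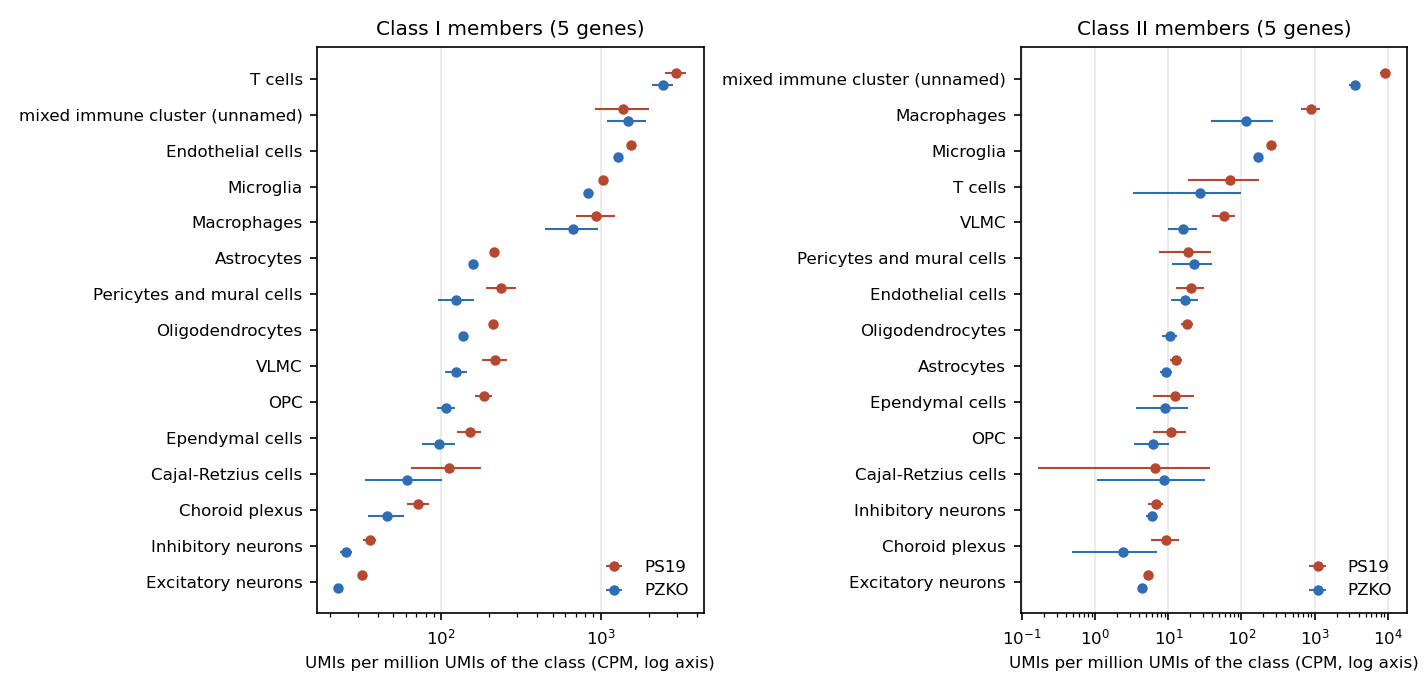
Summed level of the 5 class I members (left) and the 5 class II members (right) by cell class, in CPM on a log axis. Points are the PS19 library (red) and the PZKO library (blue), and bars are 95% Poisson intervals for counting error. Class I points in T cells, endothelial cells, microglia and macrophages lie at 674 CPM or more in both libraries, and class II points are highest in the unnamed mixed immune cluster.

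Microglia and endothelial cells together held a large part of all class I UMIs. Microglia, 9.81% of nuclei in PS19 and 8.11% in PZKO, carried 27.4% and 24.8% of the class I UMIs, and endothelial cells, 3.54% and 3.59% of nuclei, carried 14.2% and 15.4%. Excitatory neurons carried 15.1% and 18.5% of class I UMIs through their number and depth. A class I UMI was seen in 88.0% of PS19 and 86.5% of PZKO microglia (medians of 3323 and 4189 UMIs) and in 44.8% and 44.1% of excitatory neurons (medians of 18801 and 27984 UMIs). After thinning each nucleus to 1500 UMIs, the shares were 74.2% (71.2 to 77.0) and 63.2% (59.6 to 66.7) in microglia, 70.8% and 68.3% in endothelial cells, and 5.01% and 3.36% in excitatory neurons, where class I is low. Free RNA was not measured. The thinning left out 39 PS19 and 16 PZKO microglia, 75 endothelial cells in each library, and 1 and 4 excitatory neurons.

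The summed class I level was lower in PZKO than in PS19 in 14 of 14 classes, and the interval of the ratio lay below 0 in 11 of them. The log2 ratio of PZKO over PS19 ran from −0.93 in pericytes and mural cells to −0.26 in endothelial cells and T cells. In microglia it was −0.32 (−0.39 to −0.25), in endothelial cells −0.26 (−0.36 to −0.17), and it was −0.63, −0.43 and −0.50 in oligodendrocytes, astrocytes and excitatory neurons. T cells (−0.57 to 0.05) and macrophages (−0.48, −1.19 to 0.21), with few nuclei, had intervals that held 0. Under a stricter filter on nuclei (from 1000 UMIs and 500 genes, no more than 1% mitochondrial UMIs, nuclei clustered anew) the ratio was −0.15 in microglia and 0.35 in endothelial cells, where it turned direction together with *H2-D1* (0.34) and *B2m* (0.25). The median gene with at least 20 UMIs stood at −0.03 in microglia, −0.01 in endothelial cells, −0.05 in oligodendrocytes and −0.08 in excitatory neurons. Without *B2m* the class I sum was also lower in 14 of 14 classes, with 8 intervals below 0. Those of the choroid plexus, ependymal cells and inhibitory neurons then held 0. The chains *H2-D1* and *B2m* followed the sum, of which they gave 968 and 1185 of 3401 UMIs in PS19 microglia. *H2-K1* did so in part, and *Tap1* and *Nlrc5* did not.

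*H2-D1*, a class I heavy chain, had 968 UMIs in PS19 microglia (297 CPM) against 621 in PZKO (184 CPM), which gave a log2 ratio of −0.69 (−0.84 to −0.54). It was the 1 class I member of 5 at least 1.5-fold lower in microglia, where 8.45% of all 12917 genes with at least 20 UMIs were. In endothelial cells it stood at 476 and 373 CPM (−0.35), in T cells at 584.5 and 550.0 CPM, and in excitatory neurons at 10.4 and 8.17 CPM. *H2-D1* was thus lower in PZKO in 14 of 14 classes, with 10 intervals below 0, but the small difference in inhibitory neurons (8.83 and 8.72 CPM) changed sign under TMM scaling and those in inhibitory neurons and T cells under DESeq2 size factors. Cell classes kept similar places in both libraries, with T cells, endothelial cells and microglia ahead.

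*H2-K1*, another classical heavy chain, differed little in microglia and endothelial cells. It had 639 and 611 UMIs in microglia (196 and 181 CPM, log2 ratio −0.11, −0.28 to 0.05) and 403 and 454 UMIs in endothelial cells (354 and 334 CPM, −0.08, −0.28 to 0.11). In astrocytes it was at 55.0 and 39.6 CPM (−0.47, −0.67 to −0.28) and in excitatory neurons at 3.86 and 2.61 CPM (−0.56). All 14 ratios were below 0 and 5 intervals were, none of them in microglia or endothelial cells, and the ratio in T cells changed sign under DESeq2 size factors. The heavy chains resemble each other and the H2-Q genes, so single values are uncertain. Of all 50-base windows in their transcripts, 12.8% of those of *H2-D1* and 9.63% of those of *H2-K1* also occur in another gene.

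*B2m*, the light chain of every class I molecule, was lower in PZKO in every class under the main filter. Other filters were run for *B2m* in microglia and endothelial cells only, and the stricter one turned its direction in endothelial cells. Its level was 364 and 249 CPM in microglia (1185 and 839 UMIs, log2 ratio −0.55, −0.68 to −0.42), 639.5 and 481 CPM in endothelial cells (−0.41), and 481 and 261 CPM in T cells (28 and 19 UMIs). Oligodendrocytes stood at 81.8 and 39.3 CPM (−1.06), astrocytes at 69.1 and 40.8 CPM (−0.76), and excitatory neurons at 15.2 and 9.08 CPM (−0.74). All 14 ratios of *B2m* were below 0 under each scaling, and 11 intervals were. Its lowest ratio was −1.57 in the choroid plexus (69 and 13 UMIs), and its ratio nearest to 0 was −0.11 in macrophages. *B2m* overlaps *Patl2* on the other strand.

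*Nlrc5*, the class I transactivator, went the other way from the chains. It had 513 UMIs in PS19 microglia (157 CPM) against 637 in PZKO (189 CPM), which gave a log2 ratio of 0.26 (0.09 to 0.43). Endothelial cells had 51.0 and 72.1 CPM (58 and 98 UMIs, 0.50, 0.02 to 0.996) and oligodendrocytes 17.1 and 24.04 CPM (0.49, 0.15 to 0.85). The ratio was above 0 in 10 of 14 classes, its interval was above 0 in 5, and no interval was below 0. The 4 classes below 0 were inhibitory neurons, OPC, T cells and VLMC, and OPC changed sign under TMM scaling. T cells had by far the highest *Nlrc5* level, at 911 CPM in PS19 (53 UMIs) and 770.0 CPM in PZKO (56 UMIs).

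*Tap1*, a subunit of the peptide transporter, showed no shared direction. Microglia had 96 and 108 UMIs (29.5 and 32.0 CPM, log2 ratio 0.12, −0.29 to 0.53) and endothelial cells 26 and 34 UMIs (22.8 and 25.02 CPM). Oligodendrocytes had 13 UMIs in PS19 (2.02 CPM) and 34 in PZKO (4.47 CPM), a ratio of 1.15 (0.19 to 2.19) and the only interval off 0 among the 13 classes with a ratio. Part of this came from a small oligodendrocyte cluster of 12 PS19 and 24 PZKO nuclei led by the interferon-stimulated gene *Rsad2*, which held 3 and 16 of these UMIs. That cluster had a class I sum of 1184 and 959.5 CPM, near the level of microglia and far above the 213 and 138 CPM of all oligodendrocytes. *Tap1* overlaps *Psmb9* on the other strand.

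**Figure D2:**
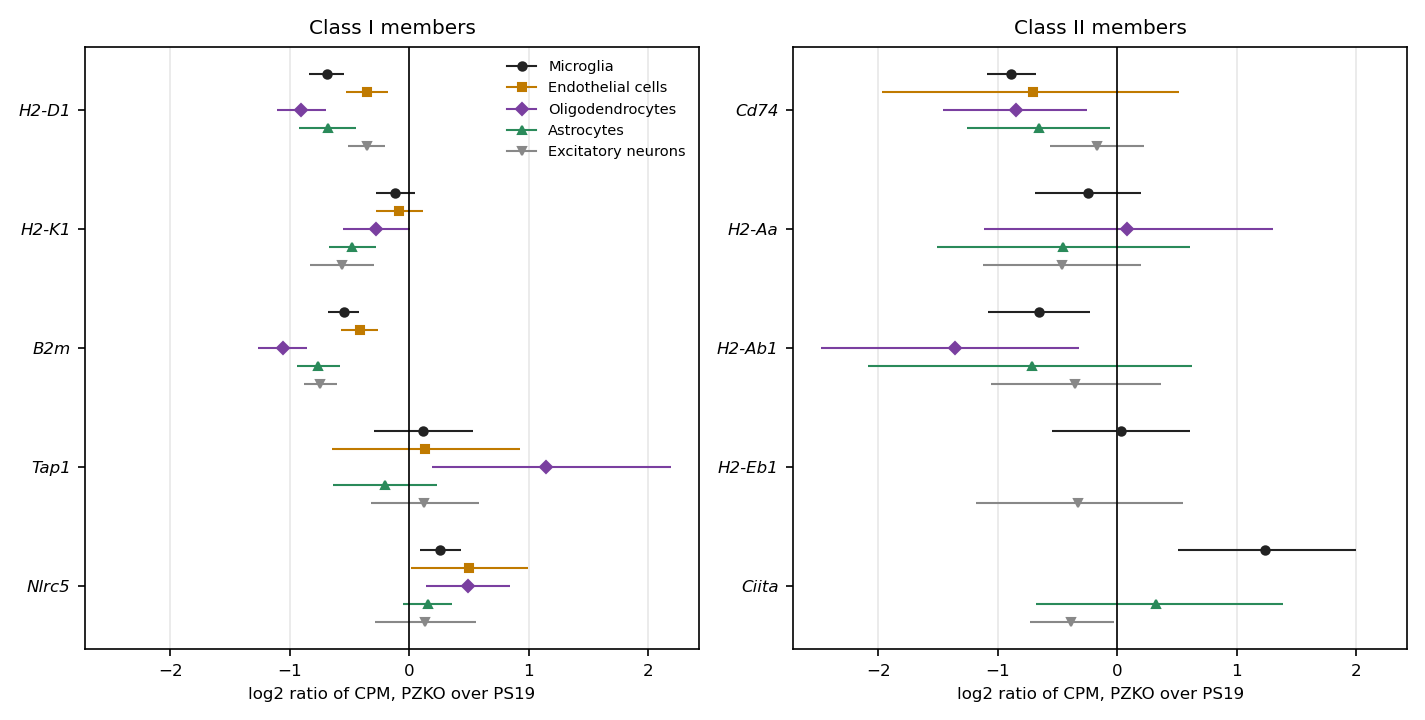
Log2 ratio of CPM, PZKO over PS19, of each class I member (left) and class II member (right) in 5 classes, for genes with 20 or more UMIs summed over the libraries. Marker shapes are the classes and bars are 95% binomial intervals for counting error. *B2m* lies left of 0 in every class shown, *Nlrc5* lies right of 0, and *Ciita* is right of 0 in microglia and left of it in excitatory neurons.

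Counted by class, endothelial cells had 0 of 5 class I members past 1.5-fold in either direction, where 8.88% of 10875 genes were lower and 7.24% higher. Oligodendrocytes had 2 lower, *H2-D1* (79.0 and 42.3 CPM, log2 ratio −0.90) and *B2m*, against 10.2% of all genes, and 1 higher, *Tap1*, against 3.72%. Astrocytes had 2 of 5 lower, *H2-D1* (39.3 and 24.5 CPM) and *B2m*, where 10.1% of all genes were. Excitatory neurons had 1 of 5 lower, *B2m*, where 8.4% of all genes were. The median log2 ratio of the 5 genes was −0.11 in microglia, −0.08 in endothelial cells, −0.27 in oligodendrocytes and −0.35 in excitatory neurons, and lowest in astrocytes at −0.47. These counts describe 2 libraries and were not tested.

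Endothelial cells held clusters with unlike class I levels. A cluster led by *Ly6c1*, *Ly6a* and *Cxcl12* (62 PS19 and 52 PZKO nuclei) had a class I sum of 2428 CPM in PS19 and 1954 CPM in PZKO, and a cluster led by *Vwf* and *Mecom* (277 and 282 nuclei) had 943 and 768 CPM. The log2 ratios were −0.31 and −0.30, so the clusters differed in level and hardly in the ratio of the sum. By gene the ratios were alike for *H2-D1* (−0.41 and −0.38) and *B2m* (−0.46 and −0.51), but not for *H2-K1* (0.10 and −0.41) or *Nlrc5* (−0.03 and 0.75). The *Ly6c1* nuclei had medians of 6118 and 8786 UMIs, against 2110 and 2243 in the *Vwf* cluster. They held 1117 of the 1757 endothelial class I UMIs in PS19 and 1158 of 1746 in PZKO. Markers of pericytes and mural cells stood at 5186 and 4326 CPM in the *Ly6c1* cluster (8 or more of 9 markers with UMIs) and at 298 and 176 CPM in the *Vwf* cluster, and their part in the class I level was not tested. *H2-K1* was at 456.5 and 489 CPM in the *Ly6c1* cluster and at 284.5 and 214 CPM in the *Vwf* cluster. *Nlrc5* was at 41.3 and 40.5 CPM in the *Ly6c1* cluster and at 57.5 and 96.6 CPM in the *Vwf* cluster.

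Class II members had their highest levels in immune nuclei. Without *Ciita*, 48.9% of their UMIs in PS19 and 40.7% in PZKO lay in microglia, 10.9% and 8.86% in the mixed immune cluster, and 11.4% and 19.4% in the many and deep excitatory neurons. The sum of the 5 genes in PS19 was 9145 CPM in the mixed immune cluster (184 UMIs in 9 nuclei), 884 CPM in macrophages (48 UMIs) and 254 CPM in microglia (829 UMIs). In PZKO the same clusters stood at 3567 CPM (128 UMIs in 13 nuclei), 116 CPM (5 UMIs) and 170.5 CPM (575 UMIs). The intervals of these 3 did not overlap in PS19, while in PZKO that of macrophages (37.7 to 271 CPM) held the microglial level. These intervals do not cover an uneven spread over nuclei, and 1 nucleus held 35 of the 47 PS19 macrophage UMIs other than *Ciita*. In the 14 PS19 macrophages with at most 1% mitochondrial UMIs, class II stood at 148 CPM (59.5 to 305). Microglia at most 1% stood at 219 CPM, so the order of macrophages and microglia in PS19 is uncertain. All other named classes were at 68.8 CPM or less, endothelial cells at 20.2 and 16.9 CPM (23 UMIs each) and excitatory neurons at 5.35 and 4.29 CPM.

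The summed class II level was lower in PZKO in 12 of 14 classes, with 7 intervals below 0 (6 under TMM scaling or DESeq2 size factors). Without *Ciita* 6 intervals lay below 0, and that of excitatory neurons held 0 (−0.27, −0.55 to 0.007). Some of the 12 classes had few UMIs, such as the choroid plexus (21 and 3) and T cells (4 and 2). Free RNA was not measured. In microglia the log2 ratio was −0.58 (−0.73 to −0.42). Macrophages had −2.93 (−4.61 to −1.61), but 35 of the 47 PS19 UMIs other than *Ciita* came from 1 of 19 nuclei, and without that nucleus the ratio was −1.10. Under the stricter filter it was −0.12 in microglia and 2.49 in macrophages. In VLMC the sum was 58.1 and 16.0 CPM (32 and 21 UMIs, −1.87), in oligodendrocytes 17.8 and 10.4 CPM (−0.78) and in astrocytes 12.8 and 9.38 CPM (−0.45). The VLMC UMIs lay in 13 of 114 PS19 nuclei (11.4%, 6.21 to 18.7) and 19 of 195 PZKO nuclei (9.74%, 5.97 to 14.8). The share of VLMC with a UMI thus differed little. Pericytes and mural cells (18.8 and 22.2 CPM) and Cajal-Retzius cells (1 and 2 UMIs) were above 0 with intervals that held 0. An unnamed cluster of low-UMI nuclei had 66.6 CPM in PS19 and 253.5 CPM in PZKO, and 38 of its 54 PZKO UMIs other than *Ciita* came from 1 nucleus.

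*Cd74*, the invariant chain, gave most of the class II UMIs in microglia. It had 539 UMIs in PS19 microglia (165 CPM) against 302 in PZKO (89.6 CPM), which gave a log2 ratio of −0.89 (−1.09 to −0.68). Macrophages had 26 and 5 UMIs (479 and 116 CPM), oligodendrocytes 9.47 and 5.26 CPM (−0.85) and excitatory neurons 1.64 and 1.46 CPM. In the mixed immune cluster *Cd74* stood at 4970 CPM in PS19 (100 UMIs) and 1282 CPM in PZKO (46 UMIs), a ratio of −1.96 (−2.49 to −1.44). The marker lists of that cluster differed between PS19 and PZKO, at 2336 and 808 CPM for neutrophils, 1938 and 864 for macrophages and 199 and 390 for dendritic cells. Its highest nucleus held 52 of 180 class II UMIs other than *Ciita* in PS19 and 29 of 113 in PZKO. The part of this make-up in the ratio was not tested. *Cd74* was lower in 11 of the 12 classes with a ratio, the exception being inhibitory neurons (2.17 and 2.29 CPM), and 5 intervals lay below 0.

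The class II chains had fewer UMIs and did not all share the ratio of *Cd74*. *H2-Ab1*, a β chain, had 120 and 79 UMIs in microglia (36.8 and 23.4 CPM, log2 ratio −0.65, −1.08 to −0.23). *H2-Aa*, the α chain it pairs with, had 95 and 83 UMIs (29.2 and 24.6 CPM, −0.24, −0.69 to 0.20), and *H2-Eb1*, another β chain, had 52 and 55 (16.0 and 16.3 CPM, 0.03, −0.54 to 0.61). The 3 intervals overlap, so at this depth the chains were not told apart in their ratio. In macrophages *H2-Aa* had 10 UMIs in PS19, *H2-Eb1* had 8 and *H2-Ab1* had 3, and all 3 genes were at 0 in the 12 PZKO nuclei, where 3 counts correspond to 69.7 CPM. In the mixed immune cluster *H2-Aa* stood at 1640 and 474 CPM, *H2-Eb1* at 1243 and 613 CPM and *H2-Ab1* at 1093 and 780.4 CPM.

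*Ciita*, the class II transactivator, was higher in PZKO microglia, where the genes it drives were lower or had intervals that held 0. It had 23 UMIs in PS19 microglia (7.06 CPM) against 56 in PZKO (16.6 CPM), which gave a log2 ratio of 1.23 (0.51 to 2.002). In excitatory neurons it had 125 and 153 UMIs (2.14 and 1.64 CPM, −0.38, −0.73 to −0.03) and in inhibitory neurons 38 and 42 UMIs (3.29 and 2.05 CPM, −0.69, −1.35 to −0.01). The ratios in microglia and neurons lay on opposite sides of 0. Under TMM scaling or DESeq2 size factors the microglial interval stayed above 0 and both neuronal intervals held 0 (upper ends of 0.05 and 0.02 under TMM scaling), and the difference between classes was not tested. The mixed immune cluster had 4 and 15 UMIs (199 and 418 CPM), macrophages 1 and 0 and T cells 2 and 0. *Ciita* overlaps *Dexi* on the other strand.

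Of the 5 class II members in microglia, 2 were at least 1.5-fold lower (*Cd74*, *H2-Ab1*) and 1 was higher (*Ciita*), where 8.45% of all genes were lower and 5.96% higher. Their median log2 ratio was −0.24. Class II UMIs other than *Ciita* were unevenly spread over nuclei. They were found in 258 of 941 PS19 microglia and 197 of 755 PZKO microglia, the highest nucleus held 39 and 17 UMIs, and the 10 highest nuclei held 22.6% and 24.3% of the UMIs. At least 2 of the 4 genes were seen together in 80 PS19 and 71 PZKO microglia. The share of microglia with a UMI was 27.4% (24.6 to 30.4) and 26.1% (22.99 to 29.4), against 6.20% and 7.42% of the deeper excitatory neurons. Thinned to 1500 UMIs, it was 18.9% (16.3 to 21.6) and 14.9% (12.4 to 17.7) in microglia, 3.41% and 3.48% in endothelial cells, and 0.472% and 0.400% in excitatory neurons, which are not known for class II.

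Markers of other cell types that express these genes were checked within microglia. Of 9 macrophage markers, 8 had UMIs in PS19 microglia and 7 in PZKO microglia, with sums of 210 and 167 CPM. Of 6 dendritic cell markers, 3 had UMIs in each library (26.4 and 20.8 CPM). The B-cell list reached 60.2 and 104 CPM and the endothelial list 126 and 195 CPM. The macrophage and dendritic lists (the latter with 86 and 70 UMIs) were thus lower in PZKO, while the B-cell and endothelial lists were higher. The B-cell list includes *Bank1*, which leads a microglial subcluster of 115 PS19 and 184 PZKO nuclei described below. *Mecom* and *Flt1* of the endothelial list are among the leading genes of a subcluster of 6 PZKO nuclei. No intervals were computed for these lists. The part these markers have in the class II result was not tested.

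Levels also varied with microglial state. Subclusters were named by their leading genes, and both libraries had at least 10 nuclei in 8 of 10. Among these 8, class I was lowest in the subcluster led by *Bank1* and *8030442B05Rik*, at 598.5 CPM in PS19 and 416 CPM in PZKO. The leading genes of that subcluster include the homeostatic gene *Selplg*. Class I was highest in the subcluster led by the interferon-stimulated genes *Irf7* and *Ifit2*, at 1499 and 1715 CPM (23 and 52 nuclei). *Nlrc5* was highest there too, at 440.2 and 639.8 CPM. Subclusters led by *Atp6v0d2* and *Gpnmb* (1279 and 1104 CPM) and by *Egr1* and *Ccl3* (1150 and 1265 CPM) lay between.

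Class II followed another order. Among the 8 subclusters, class II was highest in the one led by *Tmem163* and *Ctnna3*, at 507 CPM in PS19 and 359.5 CPM in PZKO (log2 ratio −0.50, −0.76 to −0.23). Its leading genes include the disease-associated genes *Itgax* and *Lpl*. The *Atp6v0d2* and *Gpnmb* subcluster had 403 and 269 CPM (−0.58, −0.91 to −0.27), and the *Bank1* subcluster 28.4 and 31.5 CPM. The listed disease-associated genes summed to 12032 and 7814 CPM in the *Gpnmb* subcluster. In the *Tmem163* subcluster they summed to 7200 and 6078 CPM. *Cd74* stood at 303 and 179.7 CPM in the *Tmem163* subcluster and at 255 and 125 CPM in the *Gpnmb* subcluster. *Ciita* had 9 UMIs in PS19 (18.9 CPM) and 33 in PZKO (51.1 CPM) in the *Tmem163* subcluster, a ratio of 1.43 (0.34 to 2.68), and 12 and 7 UMIs (14.7 and 17.1 CPM) in the *Gpnmb* subcluster. Among the 8 subclusters, the class I ratio was below 0 in the 6 other than the *Irf7* and *Egr1* subclusters. The class II ratio was above 0 in 4, the *Bank1* (0.15), *Gm6277* (0.01), *Irf7* (0.05) and *Top2a* (0.99) subclusters, each with an interval that held 0.

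**Figure D3:**
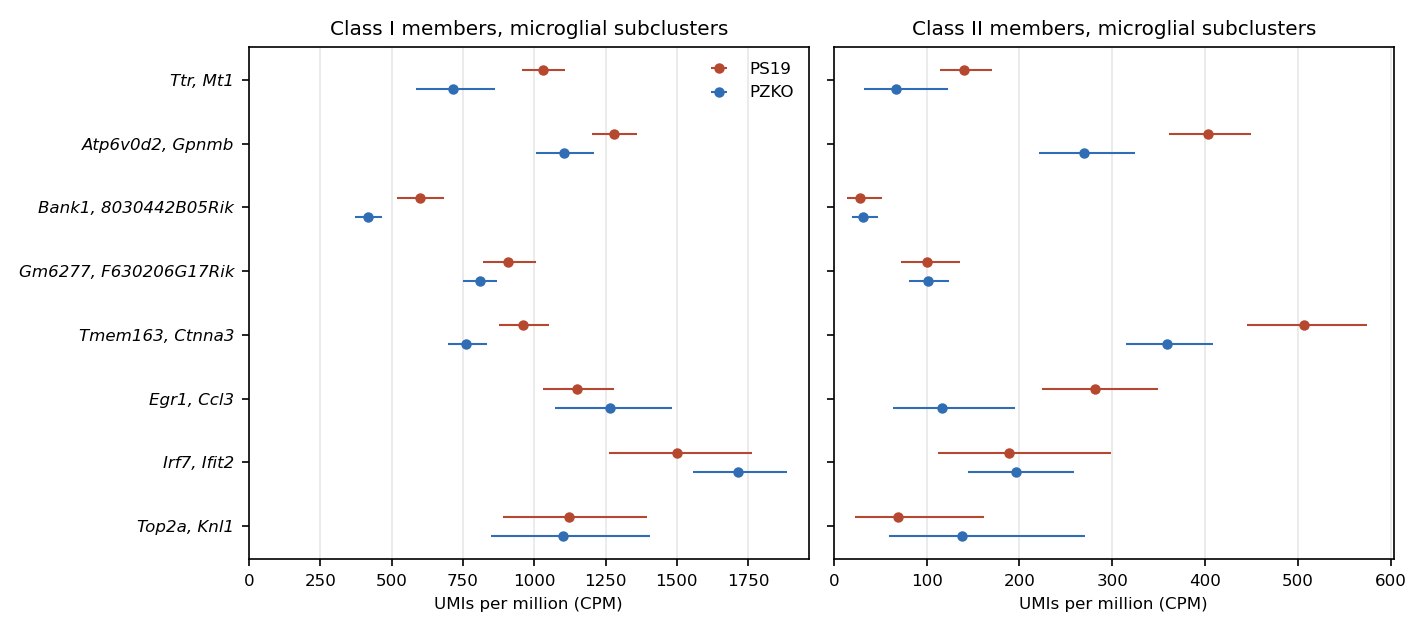
Summed class I (left) and class II (right) level in 8 microglial subclusters, named by their 2 leading genes, in CPM. Points are the PS19 (red) and PZKO (blue) libraries and bars are 95% Poisson intervals. Class I is highest in the *Irf7* subcluster (1499 and 1715 CPM) and class II in the *Tmem163* subcluster (507 and 359.5 CPM), and the *Bank1* subcluster is lowest in both panels in PS19 and PZKO.

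The libraries held the subclusters in different numbers. The subcluster led by *Ttr* and *Mt1* had 275 PS19 and 62 PZKO nuclei (29.2% and 8.21% of microglia) and the *Bank1* subcluster 115 and 184, so the summed ratio mixes level and composition. The leading genes of the *Ttr* subcluster also included *Gfap*, *Cst3* and *Ckb*, known from astrocytes or other cells, and the mitochondrial *mt-Cytb*, and its median mitochondrial share was 0.802% in PS19 and 0.631% in PZKO. The part of these genes in the ratios was not tested. Subclusters present in both libraries were also given the same weight in each library, namely their share of the UMIs of both together. The class I ratio in microglia was then −0.21, the class II ratio −0.44, *H2-D1* −0.47, *B2m* −0.43, *Cd74* −0.74, *Nlrc5* 0.28 and *Ciita* 1.23. A further 5 PS19 and 11 PZKO nuclei formed a subcluster with oligodendrocyte genes among its leading genes, and 6 PZKO nuclei one with endothelial genes. In the subcluster with oligodendrocyte genes, class II stood at 42.95 CPM in PS19 (1 UMI) and 374 CPM in PZKO (34 UMIs). That gave a log2 ratio of 3.12 (0.55 to 8.47).

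The mitochondrial share of a nucleus moved with these results. Above 1% mitochondrial UMIs lay 26.5% of PS19 microglia (249 of 941) and 18.1% of PZKO microglia (137 of 755). Among microglia at or below 1%, class I stood at 917 CPM in PS19 and 850.2 CPM in PZKO, a log2 ratio of −0.11 (−0.19 to −0.03), and class II at 219 and 180.0 CPM (−0.28, −0.46 to −0.10). Above 1%, class I stood at 1436 and 749 CPM (−0.94, −1.11 to −0.77) and class II at 365 and 117 CPM (−1.65, −2.08 to −1.24). The intervals below and above 1% did not overlap for either route. Nuclei above 1% had the higher levels within PS19 and the lower levels within PZKO. They also lay in different subclusters. The *Ttr* and *Gpnmb* subclusters held 112 and 74 of the 249 in PS19 but 17 and 11 of the 137 in PZKO. The *Bank1* subcluster and one led by *Gm6277* held 23 and 6 in PS19 and 45 and 35 in PZKO. Class II in the *Ttr* subcluster stood at 140.4 CPM in PS19 and 66.8 CPM in PZKO, and class I at 1031 and 715 CPM. In the *Gm6277* subcluster class II stood at 100.6 and 101.3 CPM. The part of the mitochondrial share and of the subclusters in these ratios was not tested.

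Single members followed the same split to different degrees. *H2-D1* kept an interval below 0 among microglia at or below 1% (247.0 and 179 CPM, log2 ratio −0.46, −0.64 to −0.29), as did *B2m* (303 and 254 CPM, −0.25, −0.40 to −0.10) and *Cd74* (136 and 96.3 CPM, −0.49, −0.73 to −0.26). *H2-K1* was at 175.5 and 182 CPM there (0.05, −0.14 to 0.24). *Nlrc5* (0.30, 0.12 to 0.49) and *Ciita* (1.34, 0.54 to 2.20) were above 0 at or below 1%. Above 1%, *Nlrc5* was at −0.31 (−0.80 to 0.17) and *Ciita*, with 5 and 3 UMIs, at −0.08 (−2.77 to 2.28). In endothelial cells, 52.5% and 53.6% of nuclei were above 1%, and their class I level was higher than at or below 1% in both libraries, at 1970 against 924 CPM in PS19 and 1565 against 842 CPM in PZKO. The endothelial ratio was −0.13 (−0.33 to 0.06) at or below 1% and −0.33 (−0.44 to −0.22) above it. Oligodendrocytes had −0.48 and −0.68, astrocytes −0.33 and −0.37, and excitatory neurons −0.47 and −0.18.

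**Figure D4:**
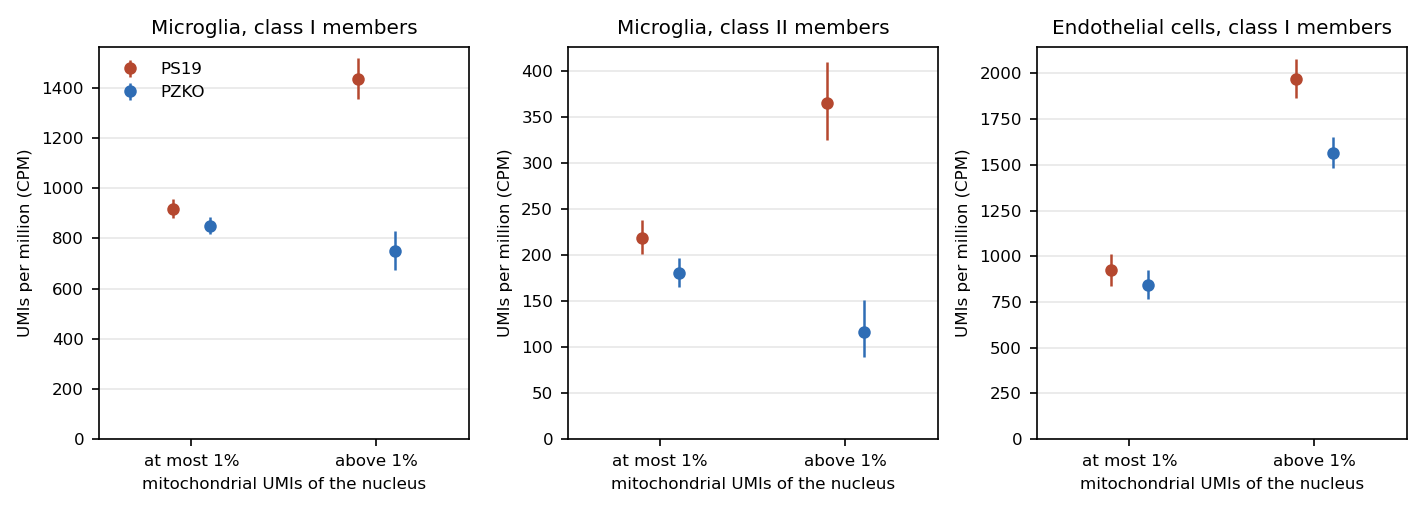
Summed level in microglia (class I, left, and class II, middle) and endothelial cells (class I, right) for nuclei with at most 1% or above 1% mitochondrial UMIs, in CPM. Points are the PS19 (red) and PZKO (blue) libraries and bars are 95% Poisson intervals. In microglia the libraries lie close at or below 1% (917 and 850.2 CPM for class I) and far apart above 1% (1436 and 749 CPM).

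Few other genes of the routes passed the fold. In microglia, 1 of 12 class I pathway genes was at least 1.5-fold lower and 0 were higher, near the 8.45% and 5.96% of all genes, with a median log2 ratio of −0.16. That gene was *Pdia3*, a chaperone of the loading complex, with 772 and 497 UMIs (−0.68). *Psmb8* (104 and 80 UMIs, −0.43), an immunoproteasome subunit, and *Psme1* (321 and 256 UMIs, −0.38), a proteasome activator, were lower by less, and *Tap2* (0.24) and *Tapbpl* (0.31) were above 0. *Canx* and *Calr*, chaperones of the heavy chain, both stood at −0.31 and *Tapbp*, which joins the chain to TAP, at −0.28. *Psmb9* (−0.05), *Erap1* (0.14), *Psme2* (0.19) and *Psmb10* (0.27) made up the rest. Of 7 other heavy chains, 0 passed the fold, and they ran from −0.36 for *H2-M3* to 0.54 for *H2-Q7* (78 and 117 UMIs), with *H2-T24* at 0.49, *H2-Q6* at 0.32, *H2-Q4* at 0.12, *H2-T23* at −0.16 and *H2-T22* at −0.26.

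In the class II pathway, 0 of 12 genes with 20 or more UMIs passed the fold in microglia, with a median of −0.03. *Ctss*, the protease that trims the invariant chain, had 4506 and 3199 UMIs (−0.54) and *Ifi30*, a lysosomal thiol reductase, 155 and 112 (−0.52). The peptide editor genes *H2-DMa* (−0.03), *H2-DMb1* (−0.04) and *H2-DMb2* (0.06) were near 0, as were *H2-Ob* (−0.01) and the protease *Lgmn* (0.01). *March1*, a ubiquitin ligase for class II molecules, was at 0.19, and the promoter factors *Rfx5* and *Rfxap* at −0.35 and 0.46. Costimulatory *Cd80* (0.09) and *Cd86* (0.11) and the adhesion gene *Icam1* (−0.24) also stayed within the fold. Of the regulators described here none passed the fold. *Irf1* (110 and 161 UMIs, 0.50), a factor of the interferon response, was above 0 with *Nlrc5*, while *Irf2* (0.12), *Irf8* (−0.02), *Ifngr2* (−0.13) and *Ifngr1* (−0.31) were closer to 0 or below it.

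**Figure D5:**
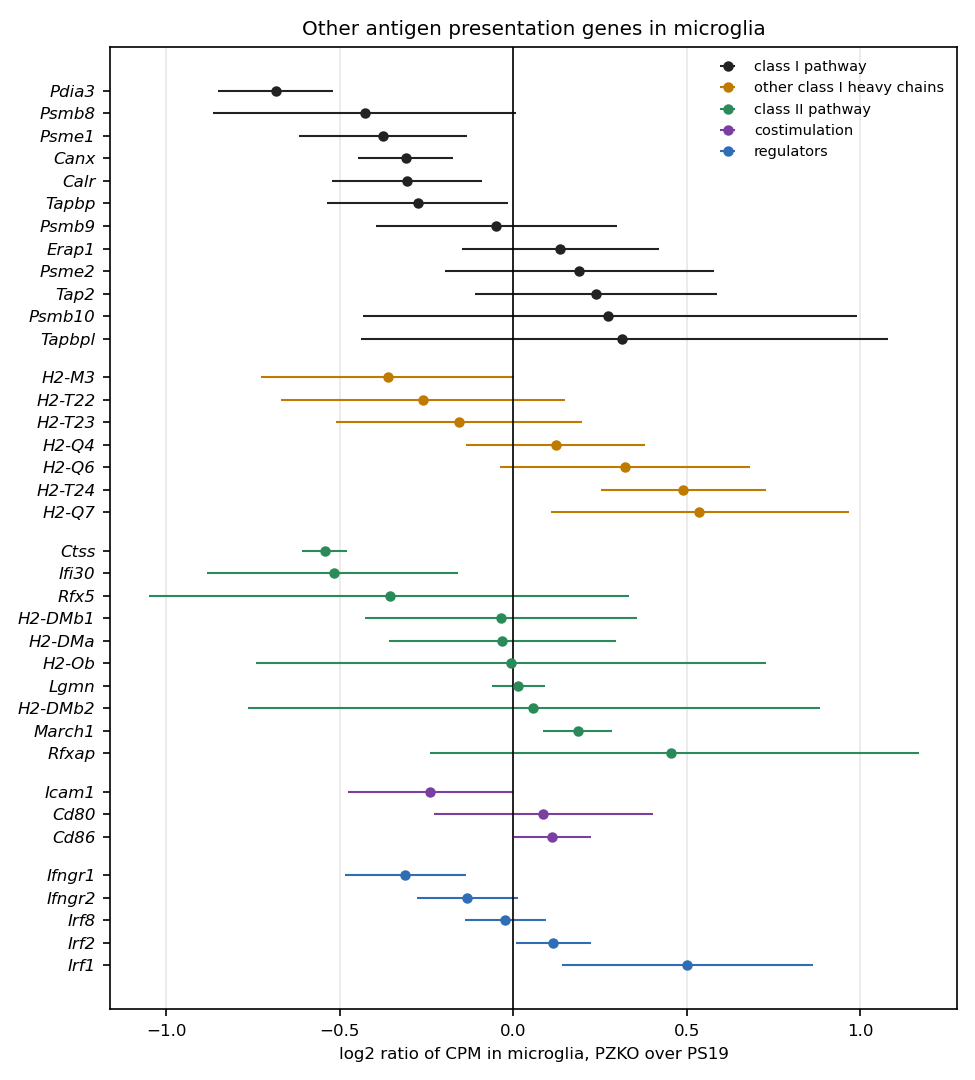
Log2 ratio of CPM in microglia, PZKO over PS19, of other antigen presentation genes, grouped and coloured by list. Bars are 95% binomial intervals for counting error. *Pdia3* (−0.68) and *Ctss* (−0.54) lie left of 0, and *H2-T24* (0.49) and *Irf1* (0.50) lie right of it.

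Endothelial cells showed the same genes at other ratios. Of all genes 8.88% were past the fold lower and 7.24% higher there. Of 12 class I pathway genes 0 passed it, 8 were above 0 and 4 below, with a median of 0.16 against −0.01 for all genes. *Psme2* (63 and 101 UMIs) stood at 0.43. *H2-M3* was at least 1.5-fold lower (25 and 13 UMIs, −1.20), as were *Ctss* (115 and 74 UMIs, −0.89) and *Ifi30* (14 and 8 UMIs). *March1* was higher, at 13 and 48 UMIs (1.63, 0.72 to 2.64), and so was *Icam1*, a ligand for leukocyte integrins, at 24 and 46 UMIs (0.68, −0.06 to 1.46). Of the class II members only *Cd74* reached 20 UMIs, at 15 and 11 (13.2 and 8.10 CPM, −0.70, −1.97 to 0.52).

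Over 28 values, 14 classes in each of 2 libraries, the genes whose levels ran most like the class I sum were *Tmbim6* (Pearson r of 0.936), *Rps23* (0.930), the heavy chain *H2-T23* (0.929), *Rpl12* (0.927) and *Irf7* (0.919), of 18688 genes compared. For the class II sum they were *C1qb* (0.938), *Ctss* (0.922), *C1qc* (0.919), *Hps3* (0.919) and *Lyz2* (0.915). The points share libraries and differ in depth, so these values are a description.

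Where the members lie in the genome bears on what nuclear 3′ counts can hold. GENCODE M21 places *H2-D1* (chromosome 17, 35262730 to 35267499), *H2-K1* (17, 33996017 to 34000347), *Tap1* (17, 34187553 to 34197225), *H2-Ab1* (17, 34257689 to 34269419), *H2-Aa* (17, 34282744 to 34287823) and *H2-Eb1* (17, 34305867 to 34316674) in the MHC. *B2m* lies on chromosome 2 (122147686 to 122153083), *Ciita* on chromosome 16 (10480059 to 10528418), *Nlrc5* on chromosome 8 (94434356 to 94527272) and *Cd74* on chromosome 18. The transactivators are the long genes, *Nlrc5* with 92.9 kb and *Ciita* with 48.4 kb, while the chains and transporter span between 4.33 kb (*H2-K1*) and 11.7 kb (*H2-Ab1*). The genes above 0 in PZKO microglia with an interval off 0 were thus the longest 2 of the 10, and the part of gene length in this was not tested.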

How the data were processed

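Hippocampi of males were pooled per genotype and their nuclear RNA was sequenced with a 3′ kit. The authors deposited raw UMI counts per gene and nucleus from Cell Ranger on mm10, without normalization. Their processing notes name version 7.0.1 and the matrix headers 8.0.1. The protocol also speaks of animals processed separately, but no label ties a nucleus to an animal.

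Nuclei were kept from 600 UMIs and 300 detected genes upward if mitochondrial UMIs made up no more than 5% (10466 in PS19 and 10128 in PZKO). The highest Scrublet scores (scanpy 1.11.5) were then removed at 0.8% per 1000 nuclei, which took 876 and 821 nuclei. Nuclei were clustered with leidenalg 0.10.2 on 2000 variable genes, 30 components and 20 neighbours at a resolution of 1, and clusters were named from marker lists. The limits for giving a cluster no name were chosen once the clusters had been seen. Clusters without a name included one led by *Enpp6* and *Anln* (713 PS19 and 521 PZKO nuclei) and one of low-UMI nuclei (317 and 218).

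UMIs were summed by class and library. Levels have exact Poisson intervals, shares exact binomial intervals and ratios exact conditional binomial (Clopper-Pearson) intervals, and a count of 0 was allowed 3 counts. Of these steps, the ratio intervals of single genes were tested on simulated counts drawn with counting error alone. An uneven spread over nuclei was not simulated. A gene passed the fold at 1.5-fold if its UMIs in the 2 libraries summed to 20 or more. All members were named, as were pathway genes that reached 50 UMIs (both libraries summed) in microglia, macrophages or endothelial cells, the 5 genes of each route with the most similar pattern, and members of state lists that lead a subcluster. The members, lists and alternatives were chosen with earlier results of these data known. Positions came from GENCODE M21, which matched 32235 of 32285 genes (99.8%). edgeR 4.0.16 and DESeq2 1.42.0 under R 4.3.3 gave only scaling factors. Some results on regulators are not reported here.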

Additional observations from a re-analysis of the deposited data

Results flagged for a closer look

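The ratio of *Ciita* stood apart because its direction differed between cell classes. Its log2 ratio of PZKO over PS19 was 1.23 in microglia (23 and 56 UMIs) and −0.38 in excitatory neurons (125 and 153 UMIs) and −0.69 in inhibitory neurons (38 and 42 UMIs), and each interval lay on 1 side of 0. Under TMM scaling the ratios were 1.27 (0.54 to 2.03), −0.31 (−0.66 to 0.05) and −0.65 (−1.32 to 0.02), so both neuronal intervals held 0, and they did so with DESeq2 size factors too. With 1 library per genotype, the difference between the classes was not tested.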

How the results depend on the processing

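The main log2 ratios of the summed members (PZKO over PS19) were recomputed under other scalings, filters, clusterings and depths, some of them chosen after seeing the data. Of these 105 values 89 lay within the main 95% interval and 16 outside it, and 3 lay on the other side of 0. In microglia both class sums were below 0 under 15 of 15 alternatives. Under the stricter filter on nuclei (at least 1000 UMIs, 500 genes and at most 1% mitochondrial UMIs), class I was −0.15 in microglia, −0.51 in oligodendrocytes and 0.35 in endothelial cells, where the direction turned, and class II was −0.12 in microglia and turned to 2.49 in macrophages. In endothelial cells *H2-D1* (0.34) and *B2m* (0.25) turned too. With the main classes and only nuclei of at most 1% mitochondrial UMIs, chosen after seeing the data, class I was −0.11 in microglia, −0.13 in endothelial cells, −0.48 in oligodendrocytes and −0.33 in astrocytes, and class II was −0.28 in microglia and −0.54 in macrophages. With doublets kept, class II in microglia was −0.42 and class I in macrophages 0.22. Without a filter on nuclei, class I in astrocytes was −0.55. Other values were also chosen after seeing the data. Giving each microglial subcluster the same weight in both libraries gave −0.21 for class I in microglia. Leaving out the macrophage nucleus with most class II UMIs gave −1.10 for class II in macrophages. The cause of the changes was not tested. Class I in excitatory neurons stayed between −0.51 and −0.41 under the 13 alternatives run for it.

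Among 598 values of single genes, 582 lay within the main interval and 16 outside it, and 31 lay on the other side of 0, 4 of them outside the main interval. In classes beyond these, scaling alone turned *H2-D1* in inhibitory neurons and T cells, *H2-K1* in T cells and *Nlrc5* in OPC. TMM scaling moved ratios by −0.01 (T cells) to 0.13 (Cajal-Retzius cells) and DESeq2 size factors by −0.25 (macrophages) to 0.15 (T cells). Macrophages formed no class at a Leiden resolution of 0.5 or with each library clustered alone, so these gave no value there. No paired analysis was possible because each genotype has 1 library. Counting error limits macrophages, T cells and the class II chains outside microglia.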
